A study of Macaca mulatta with 64 samples.

Results

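The temporal cortex of adult and aged rhesus macaques, 10 and 20 yr old, was compared with that of young macaques, 1 and 4 yr old, by cap analysis of gene expression and sequencing (CAGE-seq), which counts the capped 5′ ends of transcripts. All 8 temporal cortex libraries of the 64 libraries in the series were used, 4 older and 4 younger, and the level of a gene was the sum of its start positions in TPM, that is, tags scaled to a library of 1 M tags. Of 7688 genes listed in at least 1 temporal cortex library, and of 13269 listed anywhere in the series, 2736 reached 1 TPM in at least 4 of the 8 libraries and were tested. The comparison was repeated on 2683 genes without the library of the 10-yr females, which held few start positions.

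The study surveyed 8 brain regions of untreated rhesus macaques at 4 ages in both sexes, asking how transcription and its start sites vary with region, age and sex. Each age and sex gave 1 temporal cortex library, so the younger group held 1-yr female (1F), 1-yr male (1M), 4-yr female (4F) and 4-yr male (4M), and the older group 10F, 10M, 20F and 20M. The area taken was the superior temporal gyrus, and each age was represented by 2 males and 2 females. In the matched RNA-seq each library came from a pair of animals of the same age and sex, and CAGE-seq used the same samples. With 1 library per age and sex the p-values below measure only the spread between these libraries, which may be technical.

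In principle each capped 5′ end of a nuclear transcript marks where RNA polymerase II began it. A gene often has several such sites, so a gene's total and its choice of site can vary separately. Genes of the mitochondrial chromosome were listed as well, and whether every listed tag was such an end was not tested. The superior temporal gyrus is association neocortex that handles sound and, in primates, social signals, and it is built of glutamatergic projection neurons, GABAergic interneurons and glia. Ageing of primate cortex is known for reactive astrocytes, rich in the filament protein GFAP, and for losses of synapses and spines while most neurons remain. In bulk tissue such as this, fewer cells of a type and less RNA per cell cannot be told apart.

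Library 10F stood apart. It listed 985 start positions in 764 genes, whereas the other 7 libraries listed 3862 to 7809 positions in 2451 to 4129 genes. Its median listed gene stood at 261 TPM against 35.4 to 66.2 TPM in the others, and its correlation with them over genes was 0.26 to 0.294, against 0.36 to 0.456 among the other 7. In tag totals 10F, with 3.91 M tags, lay inside the range of 3.13 M to 5.35 M tags, and the lowest listed value of a library stood for 4 to 6 tags. Over all 8 libraries the older group listed 2555 ± 1390 genes (SD, n = 4) and the younger 3418 ± 452 (SD, n = 4), with an exact two-sided permutation p of 0.314. That measure and 6 others (positions listed, the share of genes with more than 1 position, and where along the gene or in how few genes the tags lay) gave exact permutation p-values of 0.257 to 1 over 70 splits, and 0.229 to 0.83 without 10F.

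**Figure D1:**
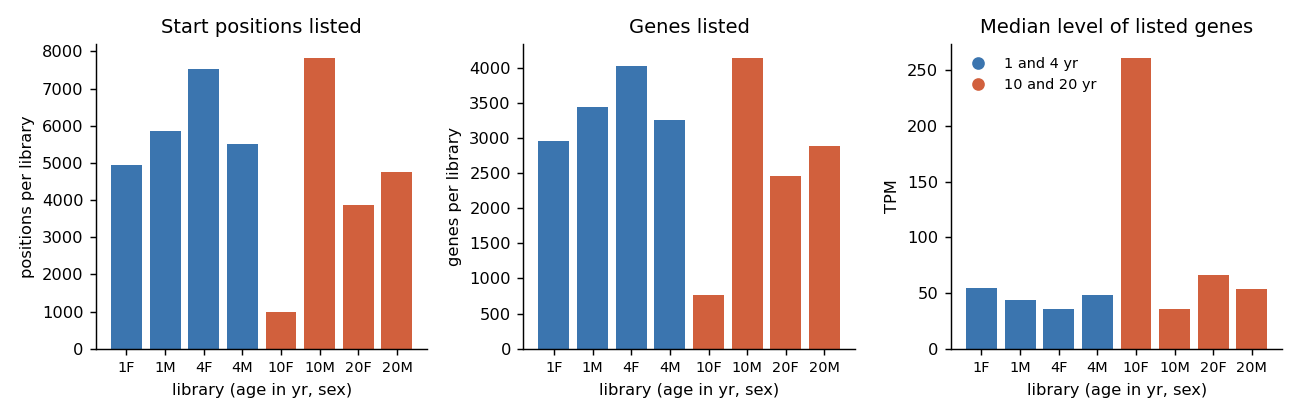
Start positions listed, genes listed and the median TPM of listed genes (vertical axes) in each of the 8 temporal cortex libraries, younger and older in different colours. Library 10F lies lowest in positions (985) and genes (764) and highest in median level (261 TPM), and the other 7 libraries of both age classes overlap.

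The tissue markers held in part. NRGN, which encodes the neuronal calmodulin-binding protein neurogranin, was listed in all 8 libraries at 120 to 551 TPM, and the astrocyte genes CLU and GFAP were listed in all 8. All 8 blood markers were at 0 in every temporal cortex library, but only 2 of the 8 were found by symbol anywhere in the series. Of 11 markers of choroid plexus, ependyma and meninges, only 3 were found by symbol in the series. In temporal cortex 9 of the 11 were at 0, TTR among them, but the list summed to 1685 TPM in 10F and 113 TPM in 1F. Markers of other brain regions were not all absent. Of 13 cerebellar markers 6 were listed, at 0 to 410 TPM in sum, with PCP2 and GABRA6 at 0. Of 9 markers of dentate gyrus and CA1 4 were listed, at 79.9 to 314 TPM in sum, with PROX1 at 0. CALB1 belonged to both of these lists and also to the interneuron markers. It gave 65.4 of 69.0 TPM of the cerebellar sum in 1F and 150 of 410 TPM in 20F. The part of choroid plexus or of other brain regions in the results was not tested. Several defining cortical markers were at 0 as well, namely TBR1, RORB and CUX2 of projection neurons, VIP and PVALB of interneurons, MAG of myelin, and AIF1, CSF1R and CX3CR1 of microglia. A value of 0 in these libraries therefore does not show that a gene was silent.

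No gene passed in the comparison of the age classes. With limma and Benjamini-Hochberg adjustment, 0 of 2736 genes (0%) had an adjusted p under 0.05, the smallest being 0.178. At an unadjusted p under 0.05 there were 15 genes with higher values in older libraries (0.548%) and 152 with lower values (5.56%). The ranges of both age classes did not overlap for 15 genes higher in the older (0.548%) and 72 lower (2.63%). The median difference over all tested genes was itself −0.99 on the log2(TPM + 1) scale, which is used for all differences below, so the lean toward lower values was shared by the whole table. Without 10F that median was −0.22 and the lean shrank. Again 0 of 2683 genes (0%) passed, with a smallest adjusted p of 0.208, while 73 genes were higher (2.72%) and 110 lower (4.1%) at an unadjusted p under 0.05, and the groups did not overlap for 92 higher (3.43%) and 83 lower (3.09%). The share of higher genes among those at an unadjusted p under 0.05 was 8.98% over 8 libraries and 5.68% after median centring, but 55.4% after quantile normalization, which evens out the libraries by construction, and 50.6% with the number of listed genes as a term in the model. The median standard error of a difference was 1.77 with 8 libraries and 1.60 without 10F, and no difference smaller than 2.97 and 2.44, respectively, reached an unadjusted p under 0.05.

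Some genes were listed in 1 age class alone. Of the 7688 genes listed in temporal cortex, 21 were listed in all 4 younger libraries and in no older one, and 0 had the reverse pattern. The reverse pattern needed a listing in 10F, which listed only 764 genes. Without 10F the counts were 22 listed in all 4 younger and none of 3 older libraries, and 13 listed in all 3 older and no younger library, although these 13 could not reach the filter of 4 libraries and were not tested. Both counts come from listing alone and carry no test. A gene listed in 4 younger libraries alone entered the tested set only through them, so it had to differ, and its p-value is given below as a description. The filter also favoured a difference in genes listed in all 4 libraries of 1 age class and few of the other. ELAVL4, RIMS2, SDC2, RPTOR, NDFIP1, EMC7, UQCRB, RPL6, FADS2, ENSMMUG00000018897 and ENSMMUG00000031073 were such genes, and their p-values are descriptions too. Of the 37 leading genes named by the rule, 14 had under 50% of their TPM within 500 nt of the annotated start, namely ELAVL4, PML, LUC7L3, RPL4, HNRNPR, RIMS2, RPTOR, DLGAP3, ADGRB2, INPP5K, CORO1A, HNRNPA2B1, PCDH9 and ENSMMUG00000031073, so their levels rest mostly on tags elsewhere. The same was true of the list members NRGN, NR4A1, CNP, SERPING1, UQCRB, PSMD3, PSMC4, PSMB5 and GPX4 described further on.

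GET1 led the genes with lower values in the older cortex. It encodes part of the receptor that inserts tail-anchored proteins into the endoplasmic reticulum membrane, and it spans 7228763 to 7245742 on the minus strand of chromosome 3 in the MMUL 1.0 build, which all coordinates here use. GET1 stood at 204 TPM in 1F, 229 in 1M, 99.1 in 4F and 454 in 4M, and was listed at 0 in all 4 older libraries. The age classes thus did not overlap, with an unadjusted p of 8.5e-05 and an adjusted p of 0.178 (limma), which did not pass. All of its tags lay within 500 nt of the annotated start, mainly 50 nt inside the gene.

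The same pattern, listed in each younger library and at 0 in each older one, held for several RNA-handling and metabolic genes. HNRNPR, a nuclear RNA-binding protein, had 60.3, 303, 54.5 and 66.6 TPM in 1F, 1M, 4F and 4M. ABHD11, a mitochondrial hydrolase, had 130, 38.8, 97.2 and 28.2 TPM in that order. EXOSC1, a subunit of the RNA exosome that degrades RNA, had 77.6, 117, 13.7 and 63.6 TPM. None of these overlapped with the older libraries and none passed, since the adjusted p was 0.194 for HNRNPR, 0.251 for ABHD11 and 0.325 for EXOSC1. GGCT, an enzyme of glutathione turnover, had 10.3 to 91.9 TPM in the younger libraries and 0 in the older, and the actin regulator CORO1A had 10.7 to 57.1 TPM against 0. PCDH9, a cell adhesion protein of neurons, had 3.2 to 132 TPM against 0.

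Other leading lower genes were still listed in an older male library. The older female libraries 10F and 20F, where these genes were at 0, listed the fewest genes, 764 and 2451. RIMS2, a scaffold of the presynaptic active zone where vesicles dock, had 115, 341, 242 and 358 TPM in 1F, 1M, 4F and 4M, and 0, 64.1, 0 and 2.46 TPM in 10F, 10M, 20F and 20M. The groups were apart, with both older females at 0, and the difference was −5.97 ± 1.49 (SE; limma adjusted p 0.41). SDC2, a heparan sulfate proteoglycan found on dendritic spines, had 25.1 to 234 TPM in the younger libraries, and among the older libraries it was listed only in 10M, at 2.99 TPM. Its difference was −5.58 ± 1.39 (SE; adjusted p 0.41). RPTOR, the raptor subunit of the growth-controlling kinase complex mTORC1, had 57.1 to 179 TPM against a single older value of 11.6 TPM in 20M. NDFIP1, an adaptor for ubiquitin ligases, had 33.2 to 289 TPM against 8.78 TPM in 10M alone. EMC7, a subunit of a membrane protein insertion complex, had 32.9 to 178 TPM against at most 2.24 TPM. The adjusted p was 0.41 for EMC7, 0.483 for RPTOR and 0.541 for NDFIP1, so these genes too fell short of the threshold.

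On the higher side the leading gene with a symbol was ELAVL4, a neuronal RNA-binding protein that stabilizes messenger RNAs. It stood at 0, 0, 3.43 and 0 TPM in 1F, 1M, 4F and 4M, and at 57.3, 93.0, 197 and 72.9 TPM in 10F, 10M, 20F and 20M. Every older library lay above every younger one, by 6.03 ± 1.34 (SE) with an adjusted p of 0.26, and by 6.45 ± 1.01 (SE) with an adjusted p of 0.208 without 10F. The gene lies at 52869265 to 53022171 on the plus strand of chromosome 1, and its main position was 152534 nt inside the gene, near its 3′ end, with no tag within 500 nt of the annotated start. The corresponding differences elsewhere were −2.09 in prefrontal cortex, −3.67 in parietal cortex and 3.50 in occipital cortex.

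Among the other higher genes, PML, the organizer of nuclear bodies, had 0, 40.9, 10.8 and 2.50 TPM in the younger libraries and 519, 54.5, 67.9 and 217 TPM in 10F, 10M, 20F and 20M. Its difference was 4.49 ± 1.61 (SE), with an unadjusted p of 0.0175 and an adjusted p of 0.669 (limma). LUC7L3, a splicing factor, ranged from 45.6 to 170 TPM in the younger and from 264 to 876 TPM in the older libraries. NAPA, the alpha-SNAP protein that helps recycle the SNARE complexes of vesicle fusion, ranged from 28.5 to 132 against 167 to 302 TPM. The remaining genes of this kind were LENG1 with 57.2 to 403 against 544 to 1048 TPM, the RNA helicase DDX39B with 71.2 to 159 against 189 to 427 TPM, the mitochondrial ribosomal protein MRPL46 with 224 to 426 against 453 to 872 TPM, and the membrane glycoprotein BSG with 149 to 225 against 241 to 424 TPM. In each of them the lowest older library lay above the highest younger one, yet the adjusted p was 0.782 to 0.945. RPL4, a protein of the large ribosomal subunit, had 2652 to 3839 against 3873 to 5841 TPM, a difference of 0.58 ± 1.27 (SE), although with only the positions within 500 nt of the start it was −1.03. Ribosomal protein genes have near-identical copies elsewhere in the genome, so their tag counts are uncertain. A gene with no symbol, ENSMMUG00000018897, had at most 4.99 TPM in the younger libraries and 1834, 699, 55.3 and 459 TPM in 10F, 10M, 20F and 20M (adjusted p 0.201).

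**Figure D2:**
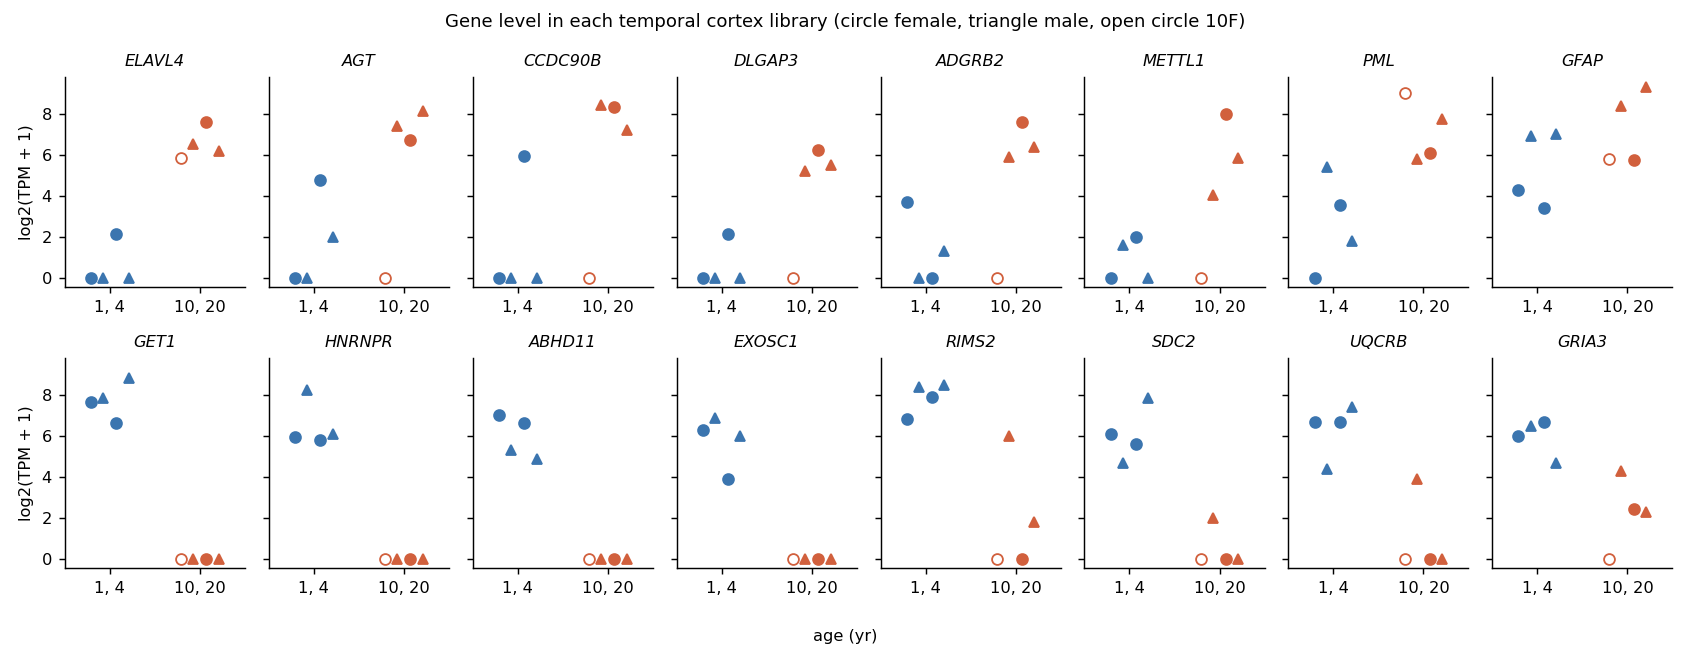
TPM of 16 genes on a log2(TPM + 1) axis in each temporal cortex library, younger and older in different colours, with genes higher in the older libraries in the upper row and lower ones in the lower row. GET1, HNRNPR, ABHD11 and EXOSC1 sit at 0 in all 4 older libraries, ELAVL4 lies above the younger values in all 4, and AGT, CCDC90B, DLGAP3, ADGRB2 and METTL1 lie at 0 in 10F but above the younger values in the other 3.

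A group of genes was higher in 10M, 20F and 20M but listed at 0 in 10F, and so led only in the comparison without that library. DLGAP3, a scaffold of the excitatory postsynaptic density, had 0, 0, 3.43 and 0 TPM in 1F, 1M, 4F and 4M, and 36.8, 73.9 and 44.6 TPM in 10M, 20F and 20M. The 3 older libraries lay above all younger ones, by 5.29 ± 1.01 (SE; limma adjusted p 0.29), and with 10F the difference was 3.71 ± 1.68 (SE; adjusted p 0.777). ADGRB2, an adhesion receptor of neurons, had 12.1, 0, 0 and 1.50 TPM in the younger libraries against 59.8, 197 and 83.8 TPM. AGT, the precursor of angiotensin, which astrocytes make in brain, had 0, 0, 26.8 and 2.99 TPM against 171, 106 and 284 TPM. CCDC90B, a mitochondrial membrane protein, had 0, 0, 61.8 and 0 TPM against 346, 326 and 149 TPM. All of these older values exceeded every younger value of the same gene, and the adjusted p was 0.396 for ADGRB2, 0.476 for AGT and 0.423 for CCDC90B. METTL1, a tRNA methyltransferase, had at most 2.97 TPM in the younger libraries and 15.3 to 252 TPM in the 3 older ones. ATXN10, INPP5K, CTDNEP1 and ZSWIM7 showed the same order, and their adjusted p was 0.423 to 0.476. Each of these higher genes was listed in all 3 older libraries and in only 1 or 2 younger ones. The filter of 4 libraries thus favoured a difference, and their p-values without 10F are descriptions. HNRNPA2B1, an RNA-binding protein that carries messenger RNAs along neurites, went the other way, with 24.1 to 239 TPM in the younger libraries and 0, 0 and 4.19 TPM in 10M, 20F and 20M, but 3483 TPM in 10F.

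Genes listed in every library gave the most precise values. There were 348 genes listed in all 8 libraries, and their median difference was 0.10 with a median standard error of 0.806. None passed with limma (0%; smallest adjusted p 0.631), and at an unadjusted p under 0.05 there were 14 higher (4.02%) and 8 lower genes (2.3%). Of the 907 genes listed in all 7 libraries other than 10F, 0 passed (0%; smallest adjusted p 0.306), with 32 higher (3.53%) and 34 lower (3.75%) at an unadjusted p under 0.05. GFAP, the intermediate filament of astrocytes, at 55005742 to 55009937 on the minus strand of chromosome 16, belonged to the first set. It had 18.8, 120, 9.61 and 129 TPM in 1F, 1M, 4F and 4M and 54.7, 333, 52.8 and 645 TPM in 10F, 10M, 20F and 20M. Within females and within males both older values exceeded both younger ones, while the ranges of the age classes overlapped because males had more than females at each age. The difference of 1.90 had an SE of 0.50 within this set, with an unadjusted p of 0.00544 and an adjusted p of 0.631, and an SE of 1.29 in the fit over 2736 genes, with an adjusted p of 0.784. For GFAP the differences in prefrontal, parietal and occipital cortex were −0.27, −0.20 and 2.72.

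Restricting each gene to tags within 500 nt of its annotated start, an alternative setting treated as a result of its own after its values were seen, left 1549 genes, of which 2 passed (0.129%). HMOX2 was the first. It encodes heme oxygenase 2, the constitutive enzyme that breaks heme down to biliverdin, iron and carbon monoxide and is abundant in neurons, and it spans 4640988 to 4677896 on the plus strand of chromosome 20. Within 500 nt of its start HMOX2 was listed at 0 in all 4 younger libraries and at 1043 TPM in 10F, 1071 in 10M, 1160 in 20F and 1383 in 20M. The older values were close to each other and far from 0, and the adjusted p was 0.0095 (limma, unadjusted p 6.14e-06). HMOX2 met the filter of 4 libraries near its start only through the older libraries, so some difference was fixed by the filter, and the p-value is a description of values already seen. The main start lay at 0, 17, 50 and 25 nt from the annotated start in 10F, 10M, 20F and 20M.

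The younger libraries were not without HMOX2. Elsewhere in the gene, mainly at a position 34560 nt inside it, HMOX2 had 419, 398, 238 and 389 TPM in 1F, 1M, 4F and 4M and 137, 190, 548 and 133 TPM in 10F, 10M, 20F and 20M. These values overlapped between age classes. Summed over the gene HMOX2 ranged from 238 to 419 TPM in the younger and from 1180 to 1709 TPM in the older libraries, with a difference of 1.99 ± 1.28 (SE; adjusted p 0.782) that did not pass. In the other neocortex start-proximal tags were listed at both ages. Posterior cingulate cortex, which was left out of the comparison between regions, had them in 4 of 4 younger and 4 of 4 older libraries. Prefrontal, parietal and occipital cortex, which share their animals with temporal cortex and with each other, had them in 8 of 12 younger and 10 of 12 older libraries. The lowest listed values there were 2.53 TPM in prefrontal 1M and 7.96 TPM in parietal 20M. Younger and older medians were 1059 and 1863 TPM in prefrontal, 138 and 1362 in parietal and 1135 and 560 in occipital cortex. The age difference of temporal cortex minus that of these regions was 8.18 ± 2.35 (SE), with an unadjusted p of 0.00327 and an adjusted p of 1.00, and 0 of 1549 genes (0%) passed that test, with 63 at an unadjusted p under 0.05. That test used the filter taken on temporal cortex alone, so its p-value for HMOX2 is a description too. In the comparison of age classes with 1 library left out, HMOX2 passed without 10F and without 20F. It did not pass in the other 6 cases, where the adjusted p was at most 0.0727.

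**Figure D3:**
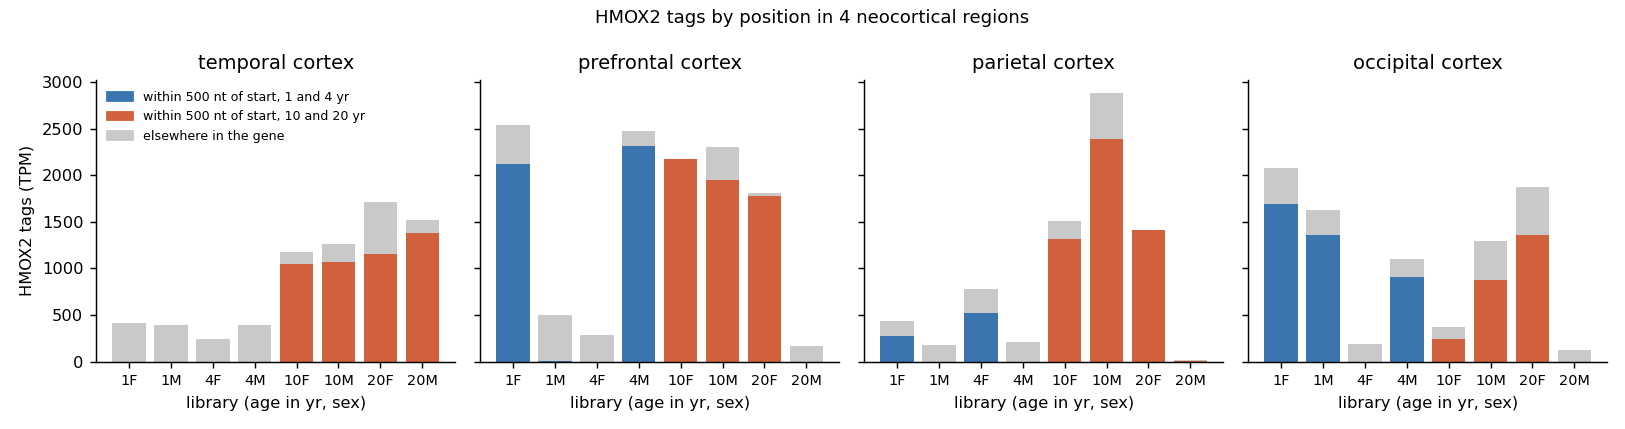
HMOX2 tags within 500 nt of the annotated start and elsewhere in the gene (TPM, bars) in each library of temporal, prefrontal, parietal and occipital cortex, ordered by age and sex. Start-proximal tags are at 0 in the 4 younger and at 1043 TPM or more in the 4 older temporal cortex libraries, while 8 of 12 younger libraries of the other regions have them.

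The other gene that passed near its start was ENSMMUG00000009016, which has no symbol and spans 1371596 to 1377702 on the minus strand of chromosome 19. It was listed at 0 near the start in the younger libraries and at 2623, 287, 133 and 722 TPM in 10F, 10M, 20F and 20M, with an adjusted p of 0.0429. It too entered the tested set only through the older libraries, so this p-value is likewise a description. The older values differed widely among themselves, from 133 to 2623 TPM, but all lay above 0. Leaving out 1 library kept it past the threshold in 2 of 8 cases, with an adjusted p of 0.0411 to 0.269. In prefrontal, parietal and occipital cortex it was listed near the start in 5 of 12 younger and 7 of 12 older libraries, and the difference between temporal cortex and these regions had an adjusted p of 1.00.

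Single start positions were tested next. Of 30570 positions listed in temporal cortex, 1250 reached 1 TPM in at least 4 libraries, and 5 of these passed (0.4%), 3 higher and 2 lower in the older cortex. Each of the 5 was listed in all 4 libraries of 1 age class and in none of the other, and so met the filter only through the class where it was high. In 4 of the 5 genes a close neighbour was in use in the other age class. In ENSMMUG00000011350 the position 401 nt inside the gene had 703, 773, 753 and 794 TPM in 10F, 10M, 20F and 20M and 0 in each younger library (limma adjusted p 0.0256). The younger libraries had their tags 385, 398 or 406 nt inside the gene, at 607, 578, 360 and 734 TPM in 1F, 1M, 4F and 4M. Joined within 20 nt, the position differed by only 0.45, with an unadjusted p of 0.735.

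MED29, a subunit of the Mediator complex that links transcription factors to RNA polymerase II, behaved alike. Its position 52 nt inside the gene, at 45735487 on chromosome 19, had 1051, 334, 623 and 218 TPM in 10F, 10M, 20F and 20M and 0 in the younger libraries (adjusted p 0.0299), while the younger libraries used positions 46, 49 or 55 nt inside, at 96.4 to 409 TPM. The joined difference was 1.11 with an unadjusted p of 0.436. PPP4C, the catalytic subunit of protein phosphatase 4, had 62.2, 833, 1632 and 1145 TPM in 10F, 10M, 20F and 20M at 21 nt (adjusted p 0.0476), against 914 TPM in 1F at 12 nt, 464 TPM in 1M at 13 nt and 0 in 4F and 4M, and the joined p was 0.10. The position 9497 nt inside ENSMMUG00000013916 had 125 to 505 TPM in the younger libraries and 0 in the older (adjusted p 0.0476), where 10M, 20F and 20M used the position 9499 nt inside at 225 to 350 TPM.

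FLAD1, which encodes the enzyme that makes the flavin cofactor FAD, was the only one of the 5 with no neighbour within 19 nt. Its position 28 nt inside the gene, at 133526569 on chromosome 1, had 252, 186, 91.3 and 166 TPM in 1F, 1M, 4F and 4M and 0 in all older libraries (adjusted p 0.0478). Summed over the gene FLAD1 had 209 to 1168 TPM in the younger libraries and 0, 13.5, 150 and 0 TPM in 10F, 10M, 20F and 20M, so the older values were again the lower ones. In prefrontal, parietal and occipital cortex that position was listed in 4 of 12 younger and 3 of 12 older libraries. Any position in a 24-nt window there was listed in 6 of 12 younger and 8 of 12 older libraries. With all positions less than 20 nt apart joined, 0 of 2566 passed (0%), with 166 at an unadjusted p under 0.05, and without 10F 0 of 1208 single positions passed (0%), with 89 at an unadjusted p under 0.05. Within a library only 0.369% of neighbouring positions lay less than 20 nt apart, whereas over the 8 libraries together 32.3% did. The authors grouped start sites less than 20 nt apart into clusters separately in each sample. A listed position may therefore stand for a cluster, and offsets of a few nt between libraries need not be shifts of the start. The part of this grouping in the positions that passed was not tested.

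Whether genes divided their tags differently among their positions was tested in genes with several of them. None of 188 genes passed with limma (0%; 10 at an unadjusted p under 0.05), and with positions joined 1 of 494 passed (0.202%). This was SNRPN, a splicing-related gene of an imprinted region. A cluster centred 126824 nt inside it was at 0 in the younger libraries and had 61.1, 525, 506 and 229 TPM in 10F, 10M, 20F and 20M, and a cluster 126864 nt inside had 591, 470, 380 and 948 TPM in 1F, 1M, 4F and 4M against 2.31, 0, 0 and 66.5 TPM in the older. The main cluster thus lay 40 nt apart in the age classes, with an adjusted p of 0.00166. The cluster 126824 nt inside met the filter of 4 libraries only through the older libraries. Some difference in position use was therefore fixed by the filter, and this p-value too is a description. Without 10F SNRPN had an adjusted p of 0.517 with positions joined, where 0 of 476 genes passed (0%; 27 at an unadjusted p under 0.05), and 0 of 184 genes passed with single positions (0%; 15 at an unadjusted p under 0.05). In prefrontal, parietal and occipital cortex the younger libraries used the position 126864 nt inside in 4 of 12 cases and the older in 5 of 12. Any position in a 69-nt window there was listed in 12 of 12 younger and 12 of 12 older libraries.

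**Figure D4:**
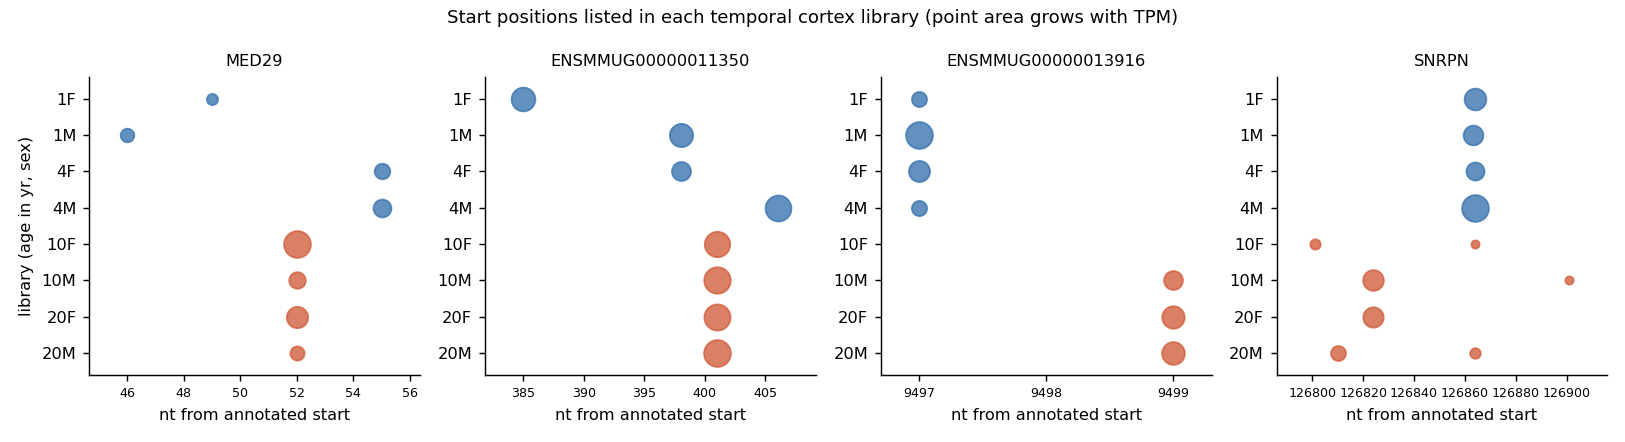
Start positions of MED29, ENSMMUG00000011350, ENSMMUG00000013916 and SNRPN (horizontal axes, nt from the annotated start) in each of the 8 temporal cortex libraries (rows), with point area growing with TPM. Younger and older libraries take positions 2 to 16 nt apart in the first 3 genes and about 40 nt apart in SNRPN.

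Gene lists for cell types and pathways were described by counts of members at an unadjusted p under 0.05, beside 0.548% higher and 5.56% lower over all 2736 genes, and by medians beside −0.99. No member of any list had an adjusted p under 0.05. Of 7 tested markers of glutamatergic neurons none reached an unadjusted p under 0.05, with a median of −1.77 (−0.94 without 10F), and of 4 tested interneuron markers none did, with a median of −1.69 (−0.52 without 10F). The summed level of the glutamatergic markers was 359 to 770 TPM in the younger and 173 to 338 TPM in the older libraries, which did not overlap. Over all lists, such sums were apart and lower in the older libraries only for glutamatergic markers, receptors and immediate-early genes. They were apart and higher only for channels and redox genes. None of these sums was tested. Of the 14 glutamatergic markers 7 were at 0 in all libraries. NRGN, the tested marker of that list listed in all 8 libraries, had 551, 140, 297 and 442 TPM against 161, 187, 177 and 120 TPM, ranges that overlapped. The sums of the cortical layer list overlapped, at 720 to 893 against 670 to 1205 TPM. So did those of the interneuron markers, at 407 to 982.5 against 2.56 to 747.5 TPM.

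None of 15 tested genes of synaptic vesicles and release and none of 14 postsynaptic genes reached an unadjusted p under 0.05, with medians of −1.14 and −0.84 (−0.45 and 0.37 without 10F). Of 7 receptor genes for glutamate and GABA 1 did, GRIA3, a subunit of the AMPA receptors that carry fast excitation. GRIA3 had 63.5, 88.0, 102 and 24.4 TPM in 1F, 1M, 4F and 4M and 0, 18.7, 4.34 and 3.95 TPM in 10F, 10M, 20F and 20M. All older values lay below all younger ones, with a difference of −3.70 ± 1.45 (SE), an unadjusted p of 0.0261 and an adjusted p of 0.708, and without 10F −2.93 with an unadjusted p of 0.0334. The summed level of the receptor list was 504 to 642 TPM in the younger and 60.4 to 450 TPM in the older libraries, whereas the median difference over its 7 tested genes was 0.60 (−0.29 without 10F). Of 9 ion channel and pump genes, with a median of −1.09 (0.62 without 10F), none reached an unadjusted p under 0.05. The summed channel level was 500 to 915 TPM against 1045 to 1671 TPM, or 1045 to 1649.9 TPM without 10F. Of 3 immediate-early genes 1 did, NR4A1, a receptor-like transcription factor induced by neuronal activity, with 161, 104, 0 and 152 TPM in the younger and 0, 2.62, 0 and 1.72 TPM in the older libraries. Its difference was −4.50 in temporal, −4.45 in prefrontal, −5.29 in parietal and −1.73 in occipital cortex. The summed level of the immediate-early list was 197 to 290 TPM in the younger and 1.54 to 177 TPM in the older libraries.

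Among glial genes the median was 0.35 over 9 astrocyte genes and 0.57 over 5 oligodendrocyte genes, none of which reached an unadjusted p under 0.05. CLU, the secreted chaperone clusterin, had 7175 to 12313 TPM in the younger libraries and 14199, 20045 and 13266 TPM in 10M, 20F and 20M but 6184 TPM in 10F. Without 10F the myelin enzyme gene CNP (unadjusted p 0.00923) and the lysosomal macrophage gene CD68 were among those at an unadjusted p under 0.05. They were listed in all 3 older libraries and in 1 and 2 younger ones, respectively. The filter favoured such genes, so these p-values are descriptions. CD68 had 0, 51.8, 0 and 121 TPM in 1F, 1M, 4F and 4M and 138, 130 and 293 TPM in 10M, 20F and 20M, with an unadjusted p of 0.0394. The complement inhibitor SERPING1 stood at 0 to 96.1 TPM in the younger and at 78.6, 389 and 35.5 TPM in the same 3 older libraries (unadjusted p 0.0172), which overlapped, and all 3 genes were at 0 in 10F. Summed over each marker list, the younger and older libraries overlapped, at 8315 to 13815 against 7374 to 21646 TPM for astrocytes, 148 to 1815 against 831 to 2162 TPM for oligodendrocytes and 209 to 318 against 149 to 603 TPM for microglia. The part of cell type shares in the other results was not tested.

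Of 30 tested nuclear-encoded genes of the respiratory chain 4 were lower and 1 higher, with a median of −1.31, and without 10F 3 of 29 were lower and 0 higher, with a median of −0.65. The summed level of that list overlapped, at 5053 to 8529 TPM in the younger and 5471 to 10026 TPM in the older libraries. UQCRB, a subunit of complex III, had 101, 19.9, 102 and 172 TPM in the younger libraries and 0, 14.2, 0 and 0 TPM in the older, which did not overlap (difference −5.31 ± 1.53 SE, unadjusted p 0.00494). ATP5F1A, the alpha subunit of ATP synthase, had 19.5 to 167 TPM against 0 to 4.14 TPM and did not overlap either (difference −4.71 ± 1.43 SE, unadjusted p 0.00702). The adjusted p was 0.541 for UQCRB and 0.564 for ATP5F1A.

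A pair of complex I genes had different values in the older female and older male libraries. NDUFA6 had 1077 to 1586 TPM in the younger libraries, 1187 and 1807 TPM in 10M and 20M, and 0 in 10F and 20F. NDUFB9 had 0 to 86.6 TPM in the younger libraries, 25.6 and 53.5 TPM in 10M and 20M, and 2601 and 2669 TPM in 10F and 20F. The age difference of males minus that of females was 10.76 for NDUFA6 and −8.57 for NDUFB9, with unadjusted p-values of 0.00136 and 0.0205 and adjusted p-values of 0.372 and 0.515 (limma). In that test 0 of 2736 genes (0%) passed, and 238 had an unadjusted p under 0.05. Of these 238, 221 (92.9%) had a positive value, and the median over all tested genes was 2.14, so the lean was shared by the whole table. Without 10F, which is among the older females, that median was 0.65. This pair was chosen for description with the values known. Of 17 tested genes of the mitochondrial chromosome, 2 were lower and 1 higher at an unadjusted p under 0.05, with a median of −0.75.

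Of 35 tested ribosomal protein genes 2 were lower and 1 higher at an unadjusted p under 0.05, with a median of −0.02 (0.07 without 10F). RPL6 was the leading one, with 59.0, 233, 90.8 and 8.73 TPM in the younger libraries and 0, 0, 0 and 2.96 TPM in the older (unadjusted p 0.00393). Of 20 proteasome and ubiquitin genes 2 were lower, the proteasome subunits PSMD3 and PSMC4, with a median of −1.24, but without 10F the median was 0.15 and the only member at an unadjusted p under 0.05 was PSMB5, with higher older values. The median was −0.55 over 11 redox genes (0.52 without 10F), −1.47 over 16 lysosome and autophagy genes (−0.88), −0.08 over 13 glycolysis genes (−0.14) and −0.18 over 19 genes linked to neurodegeneration (0.05), and none of these lists held a member at an unadjusted p under 0.05. The other lists were 14 genes of immature neurons and axon growth with a median of −0.43 (−0.21), 6 of cortical layers with −1.04 (−0.54), 6 heat shock genes with −0.97 (−0.05) and 7 of complement and antigen presentation with −0.39 (0.95), again with no member at an unadjusted p under 0.05 over 8 libraries. Of 4 genes of cholesterol and fatty acid synthesis 1 was higher, FADS2, a fatty acid desaturase, with 240, 15.8, 0 and 0 TPM in the younger and 245, 84.8, 164 and 119 TPM in the older libraries, which overlapped (unadjusted p 0.0447). Lists with 3 or fewer tested genes, among them senescence, chromatin and clock genes, had no member at an unadjusted p under 0.05 over 8 libraries other than NR4A1. The summed redox level did not overlap, at 9811 to 18938 TPM against 19069 to 24778 TPM. Most of it was GPX4, which reduces lipid peroxides and had 7666 to 15679 TPM in the younger and 14940 to 20576 TPM in the older libraries, overlapping ranges with a difference of 0.73 ± 1.28 (SE).

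**Figure D5:**
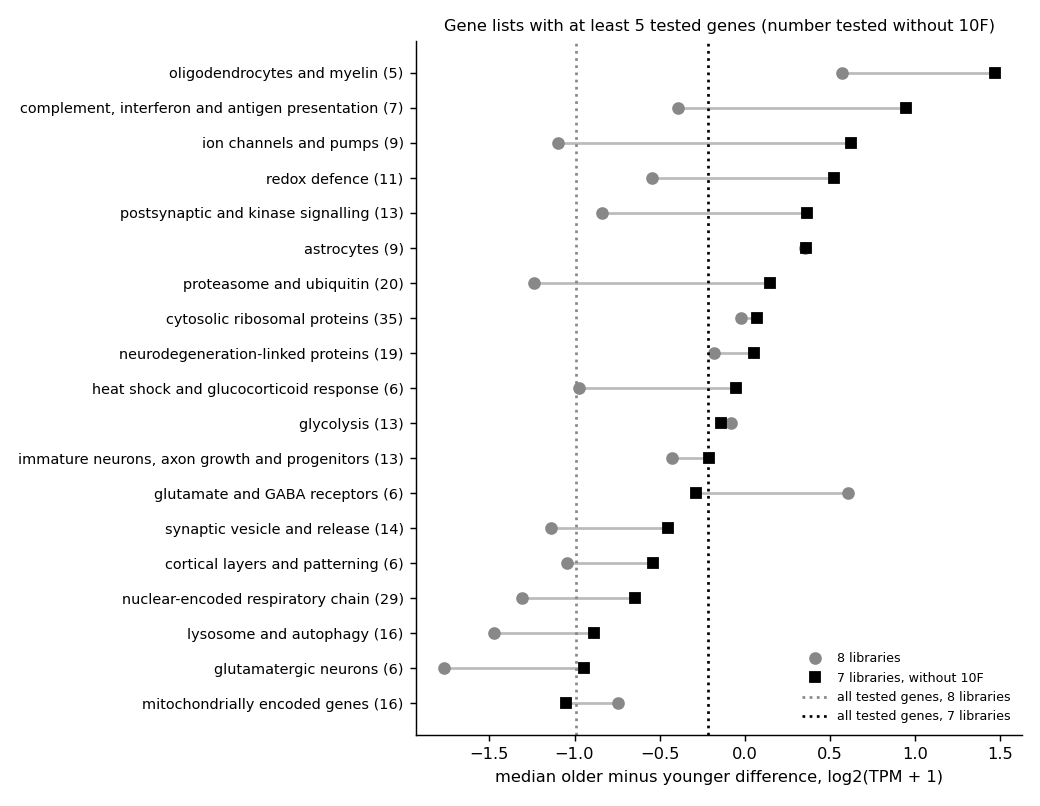
Median difference of each gene list with at least 5 tested genes (older minus younger, log2(TPM + 1) scale) with all 8 libraries and without 10F, with dotted lines at the medians of all tested genes (−0.99 and −0.22). Most of these lists move right without 10F, as all genes do, while the receptor, glycolysis and mitochondrially encoded lists move left.

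The age difference of temporal cortex was finally set against the mean of those of prefrontal, parietal and occipital cortex, which were collected from the same animals, so that each difference was taken within an animal group. With limma, 0 of 2736 genes (0%) passed, the smallest adjusted p was 0.768, and 108 genes had an unadjusted p under 0.05, 29 of them higher in temporal cortex. That adjusted p belonged to ENSMMUG00000031073, a gene with no symbol, with −7.92 and an unadjusted p of 0.000281. Among the genes described above, GET1 had −8.24 with an unadjusted p of 0.000895 and an adjusted p of 1.00, its own differences in prefrontal, parietal and occipital cortex being 0.87, 1.21 and −0.62. SDC2 had −6.76 (unadjusted p 0.00162) and ELAVL4 6.78 (unadjusted p 0.00165). The filter was taken on the temporal cortex libraries alone. ENSMMUG00000031073, GET1, SDC2 and ELAVL4 met it wholly or mainly through 1 age class there. A difference from the other regions was thus favoured, and these p-values are descriptions. The lean of the 108 genes depended on the libraries used. Without the 10F animal group 111 of 164 genes at an unadjusted p under 0.05 were higher in temporal cortex, and the median difference went from −0.32 to 0.38. Against single regions 16 of 203 such genes were higher for occipital, 67 of 100 for parietal and 64 of 114 for prefrontal cortex. In each of these settings 0 genes passed. No difference of temporal cortex from the other neocortex was thus detectable at this precision.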

How the data were processed

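CAGE-seq was performed on polyadenylated RNA, with 5′-phosphate-dependent exonuclease used to enrich capped ends, and the authors aligned reads with TopHat2 to rhesus macaque build MMUL 1.0. The deposited values are RPM, the number of tags at a start position per 1 M tags of the library, which the authors call TPM, without correction for transcript length. A position not listed was taken as 0, and a listed position may stand for a cluster of start sites formed within its library. Positions were summed per gene, and 2073 of 2736 tested genes had a symbol. A script recovered the lowest value of each library as 4 to 6 tags.

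Genes of at least 1 TPM in 4 or more libraries were tested in limma 3.58.1 (R 4.3.3, data.table version 1.17.8) on log2(TPM + 1) with age class and sex as terms, and p-values were adjusted by the Benjamini-Hochberg method over all tested genes, positions or, for position use, genes. Library measures were compared by exact two-sided permutation tests, with SciPy 1.17.1, NumPy 2.4.6 and pandas 2.3.3 in Python 3.11.15, and figures were drawn in Matplotlib 3.10.9. The scripts were tested on simulated data. As fewer than 10 genes passed in a direction, the genes named were up to 10 per direction with the smallest unadjusted p and age classes that did not overlap, up to 2 of those without a symbol, and up to 4 tested members of each gene list by unadjusted p, with the positions that passed. The comparison, the members and the gene lists were chosen with earlier results of these data known. Alternatives covered the pseudocount (0.25 and 5 TPM), the filter, the scaling, the model terms, the positions summed and each library left out. Treating start-proximal tags as a result of their own, the alternatives to it and to the comparison without 10F, and joined position use without 10F, were chosen after seeing the data. Values of a few list members are not reported here.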

Additional observations from a re-analysis of the deposited data

Results flagged for a closer look

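In 154 groups of 4 libraries, the highest or lowest library was compared with the rest by the share of the range that separates it from its nearest neighbour, and 10 groups exceeded Dixon's 95% critical value for 4 values. Chance alone gives about 1 in 20 groups. Library 10F supplied 3 of the 10 values. The median listed gene of 10F stood at 261 TPM, apart from the other 3 older libraries. DDX39B, an RNA helicase, had 427 TPM in 10F, above the others of its group. DLG3, a postsynaptic scaffold, had 2211 TPM in 10F, far above the other older libraries. CNP, a myelin enzyme, had 138 TPM in 20F and at most 7.28 TPM in the other older libraries. NEUROD6, a transcription factor of projection neurons, had 127 TPM in 20F, the highest of the older group. Among the younger libraries, the lysosomal protease CTSB had 384 TPM in 1F against 246 to 250 TPM in the others. HMOX2 had 238 TPM in 4F, the lowest of its group. HNRNPR had 303 TPM in 1M, NDUFB9 had 86.6 TPM in 4M and SERPING1 had 96.1 TPM in 4F, each the highest of the younger group.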

How the results depend on the processing

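The count of genes that passed was 0 under each alternative to the comparison of age classes except with only positions within 500 nt of the start, where it was 2, and it was 0 under each alternative without 10F. Taken as a result of its own, that count of 2 became 0 with a slope on log2 age, 1 with the limma trend, 1 with the number of listed genes as a term, 0 for the difference from the other neocortex, and ranged from 0 to 3 with 1 library left out. The count of 5 positions became 2 with a pseudocount of 0.25 TPM, 0 with positions joined and 0 without 10F, and the count of 0 genes for position use became 1 with positions joined and was 0 when they were joined and 10F was left out. The causes of these changes were not tested. Without 10F, 2 library measures changed sign. The share of TPM upstream of the start was lower by 1.20 percentage points in older libraries and then higher by 0.604, and the share in the 20 highest genes differed by −0.0350 and then by 0.804. Over 69 named genes and 974 values under alternatives, 971 kept their direction and their side of the threshold, HMOX2 and ENSMMUG00000009016 passed with start-proximal tags, and RPL4 turned to −1.03 with them. The median difference of all genes ranged from −1.31 to −0.22 with 1 library left out, and from −0.38 to 0.10 when 1 of the 7 other libraries was left out as well as 10F. With 1 library per age and sex, and with many genes listed at 0, no difference below 2.97 over the 2736 tested genes, or 2.44 over the 2683 without 10F, reached an unadjusted p under 0.05, against 1.23 over the 348 genes listed in all 8 libraries. No paired analysis was possible because each age and sex gave 1 library and the age classes share no animals.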
